A study of Homo sapiens with 24 samples.

Results

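Genes for protein folding and quality control in the endoplasmic reticulum (ER), for ER-associated degradation (ERAD) and for entry of proteins into the secretory pathway were followed in glioblastoma cell lines. The set of 43 genes was given as a list of symbols, and each symbol was matched to 1 row of the 43037 genes in the deposited table. The list was made by function, with no threshold on a measured value. The genes were divided by role into 10 Hsp70 and Hsp90 chaperones with their cofactors, 2 lectin chaperones, 4 protein disulfide isomerases, 5 stress sensors and transcription factors, 8 genes of ERAD, 7 genes of the translocon and the TRAP complex, 5 genes of the signal peptidase and 2 genes of ER membrane calcium and survival proteins. Levels are in CPM, the tags of a gene per 1000000 tags of its library. Of the 43, 41 reached a minimum of 5 CPM somewhere among the libraries, and these 41 were tested. DERL1 and EDEM1 did not reach that level and are given by their values.

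The libraries were made by cap analysis of gene expression (CAGE-Seq), which reads the capped 5′ ends of transcripts and counts them as tags. U87MG, T98G, U251MG, and DBTRG-05MG are established human glioblastoma lines. Each was carried as a “Vec” variant, transduced with an empty lentiviral vector, and as a “WWOX” variant, transduced to overexpress WWOX, a tumor suppressor gene, and each of the 8 groups had 3 libraries (24 in all). Both variants of every line went through the lentiviral transduction (multiplicity of infection 1.5) and puromycin (1 µg/mL) started after 72 h, and the lines were grown in different media (EMEM for U87MG and U251MG, MEM for T98G, RPMI-1640 for DBTRG-05MG). Line and medium therefore cannot be told apart in comparisons between lines, except between U87MG and U251MG, which shared a medium.

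Proteins bound for secretion or for membranes enter the ER through the Sec61 channel, lose their signal peptide to the signal peptidase, and fold with the help of HSPA5 (BiP), calnexin, calreticulin and protein disulfide isomerases. Proteins that do not fold are drawn back to the cytosol and degraded, with SEL1L, SYVN1 (HRD1) and the derlins at the membrane. When unfolded proteins build up, the sensors ATF6, ERN1 (IRE1) and EIF2AK3 (PERK) start the unfolded protein response, which raises the transcription of many of these same genes, in part through ER stress response elements in their promoters.

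Tags on genes numbered 10756072 to 16953689 per library, so that 3 tags, the limit used here for a gene that was not detected, correspond to 0.177 to 0.279 CPM. WWOX itself stood higher in every “WWOX” library than in every “Vec” library of U87MG (61.0, 61.3, and 66.0 CPM against 33.9, 39.8, and 40.1) and of DBTRG-05MG (27.96, 28.2, and 32.0 against 20.4, 21.3, and 22.2). The variants overlapped in T98G (45.1, 59.95, and 61.8 against 34.2, 38.6, and 57.2) and in U251MG (17.4, 38.0, and 56.7 against 31.4, 32.1, and 36.8), where the library labelled “WWOX” 2 lay below every “Vec” library. Whether tags that start on the vector are counted in these values is not given in the sources used here. CD44, a marker of mesenchymal glioma cells, was found in all libraries (678 to 3520 CPM), as was VIM (13.5 to 71.7 CPM). The other listed glioma markers varied. GFAP was at 2035 to 3115 CPM in U251MG “Vec”, at 114, 2506, and 3226 CPM in the U251MG “WWOX” libraries (in order of size), and at 0.79 to 11.6 CPM in the other lines. In U87MG and T98G, SOX2 was at most 0.562 CPM, FABP7 at most 0.372 CPM, and S100B at most 1.02 CPM. All U251MG and DBTRG-05MG libraries were above these values. NES was at most 0.352 CPM in T98G, and OLIG2 at most 3.57 CPM anywhere. Of 12 markers of blood, epithelial, and endothelial cells 9 were under 1 CPM in all libraries. The others were CDH1 (up to 2.33 CPM) and KRT8 (up to 29.8 CPM) of the epithelial list, both highest in DBTRG-05MG, and CDH5 (up to 13.2 CPM) of the endothelial list, highest in U251MG “WWOX”. Their part in the results was not tested. The 3 U251MG “WWOX” libraries correlated least with the other libraries of their group (mean r over all tested genes 0.904 to 0.930, against at least 0.949 in the other groups), and the counts for the other lines are therefore also given without U251MG.

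**Figure D1:**
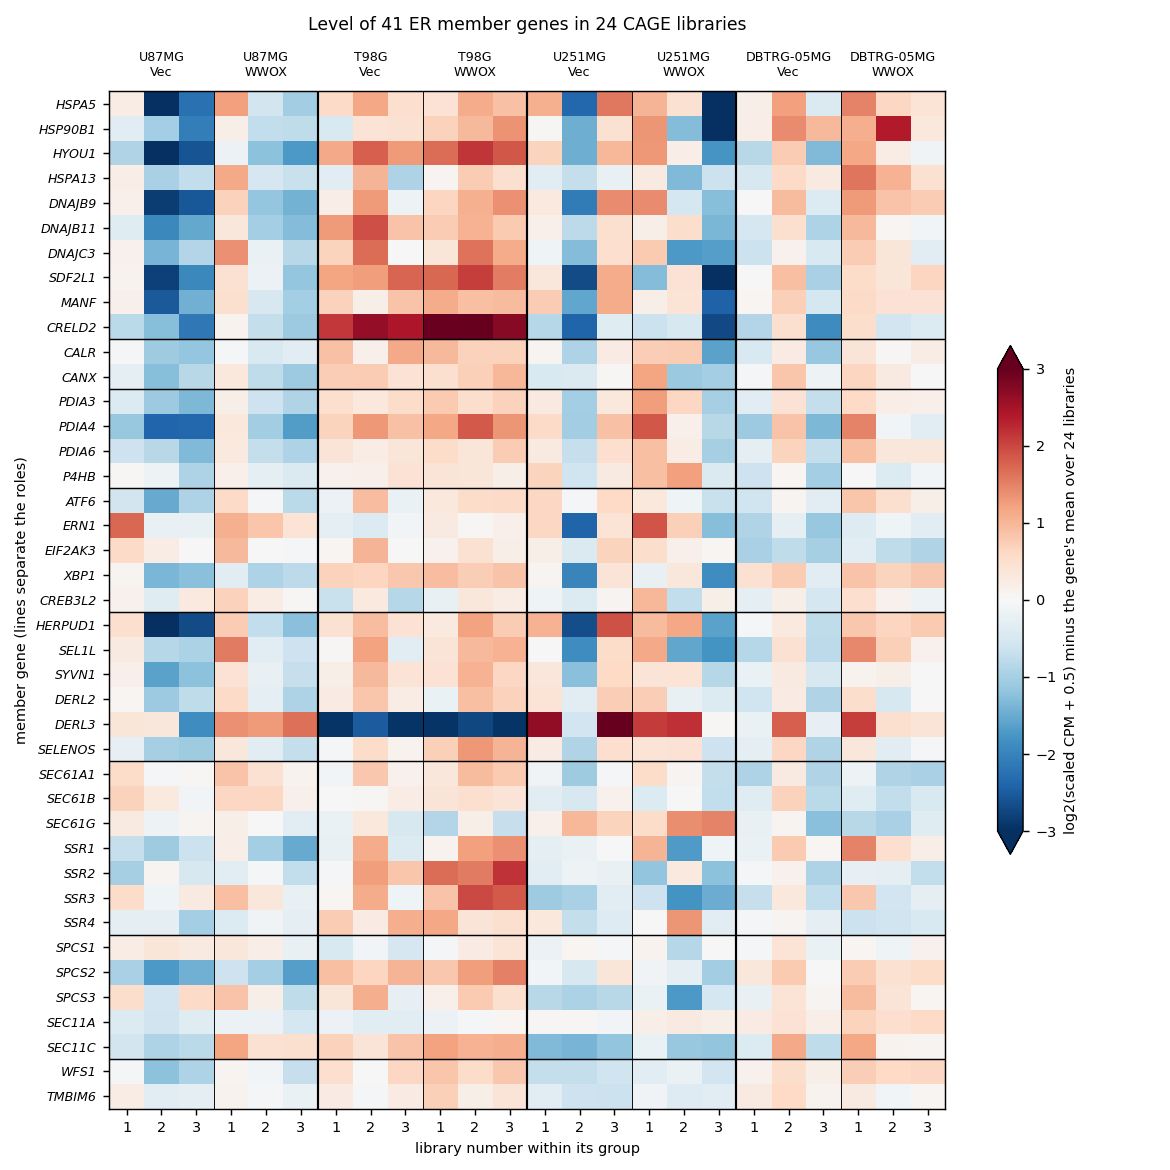
Level of the 41 tested members in the 24 libraries, as log2(scaled CPM + 0.5) minus the mean of the gene; columns are libraries in the 8 groups, rows are genes by role, and red is above and blue below the mean. Libraries 2 and 3 of U87MG Vec, library 2 of U251MG Vec and library 3 of U251MG WWOX are blue for most chaperones, T98G is red for CRELD2 and blue for DERL3, and SEC11A and TMBIM6 are pale throughout.

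Many of these genes differed widely between libraries of the same group. HSPA5, the main Hsp70 chaperone of the ER lumen, was counted at 6850, 341, and 1383 CPM in the 3 U87MG “Vec” libraries and at 15655, 4197, and 2985 CPM in the “WWOX” libraries. In U251MG its values were 13728, 1400, and 19778 CPM in “Vec” and 15655, 7175, and 711 CPM in “WWOX”. Within a group the highest library thus exceeded the lowest 20.1-fold and 5.24-fold in U87MG “Vec” and “WWOX”, and 14.1-fold and 22.01-fold in those of U251MG. T98G was more even, with 8968, 14992, and 7796 CPM in “Vec” and 7934, 13063, and 11472 CPM in “WWOX”, ratios of 1.92 and 1.65. DBTRG-05MG lay between these, with 7782, 15576, and 5616 CPM in “Vec” and 21604, 11626, and 9021 CPM in “WWOX”, ratios of 2.77 and 2.39. “Vec” and “WWOX” libraries overlapped for HSPA5 in all 4 lines.

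On the log2 scale the spread of HSPA5 around the group means had a standard deviation of 1.50, more than that of 99.9% of the 12327 tested genes. The median over the 41 members was 0.604, against 0.398 over all tested genes and 0.390 over the 1734 genes with a mean above 100 CPM, and 34 of the 41 lay above the median of all genes. Besides HSPA5, the widest spread belonged to HERPUD1 (1.31), SDF2L1 (1.201), HSP90B1 (1.18), DNAJB9 (1.14), and DERL3 (1.10). HERPUD1, which brings ERAD substrates to the ubiquitin ligase, was counted at 491, 39.4, and 60.6 CPM in U87MG “Vec” and at 801, 67.5, and 1498 CPM in U251MG “Vec”. SDF2L1, a partner of the ER Hsp40 cochaperones, was counted at 1005, 134, and 272 CPM and at 1330, 179, and 2297 CPM in the same groups. In both genes the library that was low for HSPA5 was again the lowest of its group. At the other end stood SEC11A, the catalytic subunit of the signal peptidase, whose standard deviation of 0.115 was below that of all but 0.073% of tested genes, and TMBIM6 (BI-1), an ER membrane protein that limits cell death (0.215). By role, the medians of the signal peptidase genes (0.382) and of the ER membrane calcium and survival proteins (0.262) lay below the median of all tested genes.

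The members that varied did so in the same libraries. In U87MG, library 1 of each variant had all 16 chaperones, lectins, and isomerases above the mean of its group, and library 3 had none. All 16 were likewise below the mean in U251MG “Vec” 2 and in U251MG “WWOX” 3, and all 16 were above it in U251MG “Vec” 3, U251MG “WWOX” 1, and DBTRG-05MG “Vec” 2. The median deviation of these genes reached −1.06 in U251MG “Vec” 2 and −1.26 in U251MG “WWOX” 3 on the log2 scale, against 0.92 in U251MG “WWOX” 1. For the 12 genes of the translocon, TRAP and signal peptidase the median deviation was −0.09, −0.27, and 0.36 in those libraries. Above the group mean there were 4, 4, and 7 of them, and opposite deviations offset each other in such a median. It is therefore no measure of how far single genes deviated. Together the 43 genes took between 1.23% (U87MG “Vec” 2) and 7.10% (U251MG “WWOX” 1) of all tags of a library, and HSPA5 alone between 0.034% and 2.16%.

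Pearson's r between the deviations of a gene and those of HSPA5 from their group means was computed over the 24 libraries, as a description, because libraries of one group share their mean. Of the other 40 members, 31 had r above 0.5, a level that 9.53% of all tested genes reached. The chaperones and cofactors followed HSPA5 most closely (median r 0.895, range 0.526 to 0.956), led by MANF (0.956), a secreted cofactor of HSPA5, and HYOU1 (0.952), its nucleotide exchange factor. Genes of ERAD had a median of 0.823, with SYVN1, the HRD1 ubiquitin ligase, at 0.945 and HERPUD1 at 0.944. The median was 0.816 for the disulfide isomerases and 0.777 for the sensors and factors, among which XBP1 (0.909) and ERN1 (0.902), the kinase and nuclease that splices the XBP1 transcript, were highest and CREB3L2 (0.422) lowest. The 5′ tags do not read that splicing event. The translocon and TRAP genes (median 0.315) and the signal peptidase genes (median 0.376) were split. SEC61A1, the channel itself, had r of 0.826 and SPCS2 0.836, whereas SEC61G (−0.007), SPCS1 (−0.012), and SSR2 (0.068) had values near 0. Without the U251MG libraries these were 0.495, 0.359, and −0.108.

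**Figure D2:**
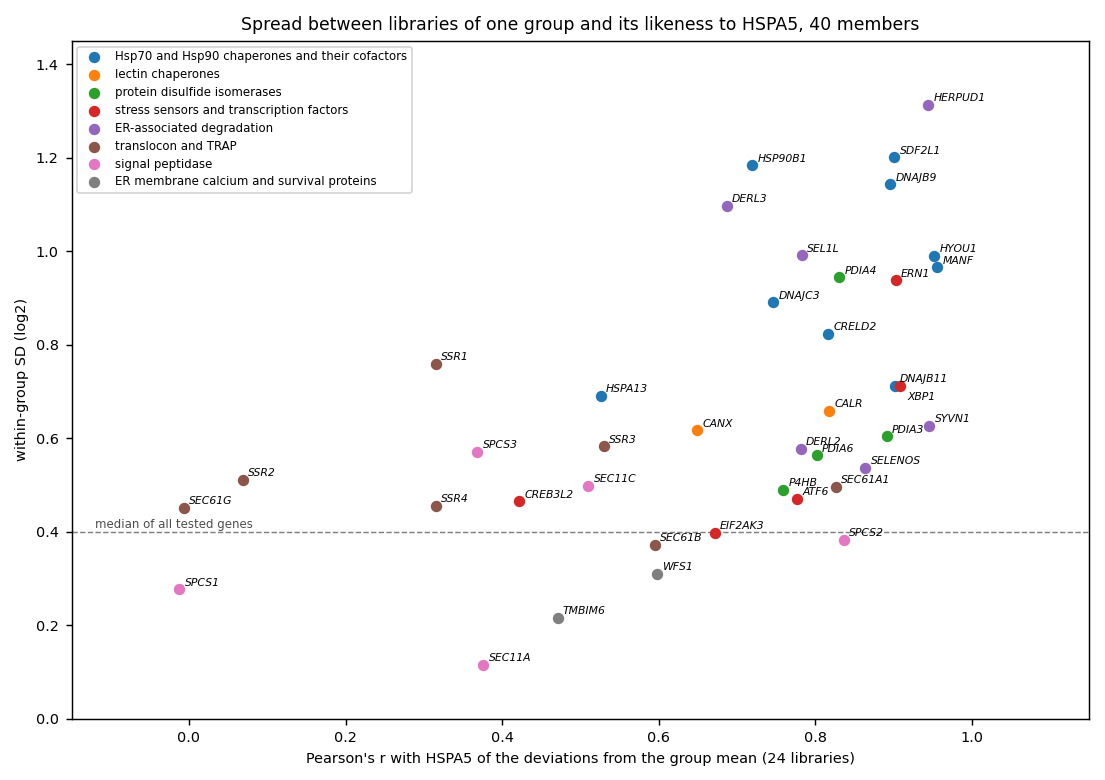
Within-group standard deviation (log2, vertical axis) of 40 members against Pearson's r of their deviations with those of HSPA5 (horizontal axis, 24 libraries); each point is a gene, coloured by role, and the dashed line is the median standard deviation of all tested genes (0.398). Chaperones and ERAD genes fill the upper right, and SPCS1, SEC61G and SSR2 lie near an r of 0.

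The number of members that followed HSPA5 changed little with ranks or with fewer libraries, but some members moved. Spearman's rho was above 0.5 for 32 of the 40 members. Without the 2 libraries whose HSPA5 deviated most (U251MG “WWOX” 3 and U87MG “Vec” 1), r was above 0.5 for 30 members, with a median of 0.729 in place of 0.768. Without all U251MG libraries it was above 0.5 for 33 members in the remaining 18 libraries, while r changed from 0.719 to 0.420 for HSP90B1, from 0.687 to 0.315 for DERL3, from 0.315 to −0.107 for SSR4, and from −0.007 to 0.495 for SEC61G. Separately in the “Vec” and in the “WWOX” libraries, HYOU1 reached 0.943 and 0.964, MANF 0.958 and 0.954, and SYVN1 0.971 and 0.928. The deviation of HSPA5 had an r of 0.365 with that of the total number of tags, and the members ranged from −0.456 (SSR4) to 0.766 (SSR3) with a median of 0.403. The part of depth in this relation was not tested.

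Promoters were examined because many of these genes varied together between libraries. Sequences from 250 bases before to 50 bases after the annotated start, from RefSeq on GRCh38.p14, were found for 39 of the 43 members (51 starts). Both strands were searched for the ER stress response element (ERSE, CCAAT and CCACG with any 9 bases between them) and for ERSE-II (ATTGG and CCACG with any 1 base between them), the elements through which ATF6 and XBP1 are known to act. ERSE was found at 9 of the 51 starts (7 members) and ERSE-II at 3 (3 members), against 27 and 19 of all 35116 promoters (0.077% and 0.054%, these starts included), and no promoter held both. The list was made by function and holds genes of the unfolded protein response, which acts in part through these elements. The comparison with all promoters is therefore no test of why members varied together. Positions are counted backwards from the start. In HSPA5 the ERSE began at −66. The 250 bases before the start (chr9:125241344-125241593, minus strand, 62.0% G and C) are shown because HSPA5 was the reference of the relation above, with the fixed letters of the element in capitals.
HSPA5: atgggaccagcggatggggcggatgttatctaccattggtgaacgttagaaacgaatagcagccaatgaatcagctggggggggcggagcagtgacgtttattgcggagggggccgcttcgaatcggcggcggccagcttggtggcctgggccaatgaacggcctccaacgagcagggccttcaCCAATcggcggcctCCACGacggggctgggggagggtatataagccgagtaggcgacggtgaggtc

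The ERSE of each member is shown with up to 20 bases on each side, read along the gene, with the fixed letters in capitals, so that their spacing and flanks can be compared. HSP90B1 held 2, and CANX held the same one upstream of or at 3 of its 4 listed starts.
PDIA6: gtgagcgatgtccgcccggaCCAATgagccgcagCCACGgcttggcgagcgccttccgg
CANX: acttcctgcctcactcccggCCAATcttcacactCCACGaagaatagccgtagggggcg
HSPA5: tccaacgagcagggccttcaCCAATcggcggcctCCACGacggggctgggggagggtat
HSP90B1: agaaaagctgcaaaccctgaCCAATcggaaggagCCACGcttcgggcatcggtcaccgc
HSP90B1: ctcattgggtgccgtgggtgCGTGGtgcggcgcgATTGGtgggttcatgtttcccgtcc
CALR: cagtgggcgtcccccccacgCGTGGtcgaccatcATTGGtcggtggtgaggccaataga
XBP1: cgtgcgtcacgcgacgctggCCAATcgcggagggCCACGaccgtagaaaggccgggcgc
CRELD2: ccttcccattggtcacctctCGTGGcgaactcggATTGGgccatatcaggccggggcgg
The regions are PDIA6 chr2:10812833-10812891 (- strand), CANX chr5:179698758-179698816 (+ strand), HSPA5 chr9:125241371-125241429 (- strand), HSP90B1 chr12:103930196-103930254 (+ strand), HSP90B1 chr12:103930301-103930359 (+ strand), CALR chr19:12938364-12938422 (+ strand), XBP1 chr22:28800583-28800641 (- strand), CRELD2 chr22:49918534-49918592 (+ strand). In CALR, CRELD2, and the second element of HSP90B1 the element lies on the opposite strand and is read as its reverse complement.

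ERSE-II was found in HYOU1, where it occurs at −185 and −79, in HERPUD1 at −117, and in SDF2L1 at −188, and is shown in the same way. In HYOU1 and SDF2L1 it lies on the opposite strand and is read as its reverse complement.
HYOU1: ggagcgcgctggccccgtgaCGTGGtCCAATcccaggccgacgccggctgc
HYOU1: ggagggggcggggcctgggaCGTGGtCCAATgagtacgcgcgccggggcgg
HERPUD1: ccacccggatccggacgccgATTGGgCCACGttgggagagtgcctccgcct
SDF2L1: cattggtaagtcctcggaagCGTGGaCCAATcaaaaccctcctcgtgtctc
The regions are HYOU1 chr11:119057360-119057410 (- strand), HYOU1 chr11:119057254-119057304 (- strand), HERPUD1 chr16:56932005-56932055 (+ strand), SDF2L1 chr22:21642094-21642144 (+ strand).

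The 10 members with an element had a median within-group standard deviation of 0.907 (range 0.563 to 1.50), and the 28 tested members with a promoter sequence but no match had a median of 0.523 (range 0.115 to 1.14). The median r with HSPA5 was 0.817 for 9 of the former (HSPA5 itself left out) and 0.709 for the latter. The ranges overlapped, and MANF, SYVN1, ERN1, and DNAJB9 had r of at least 0.895 with no exact match in this window. The members with an element include HSPA5, HSP90B1, HYOU1, SDF2L1, and CRELD2 of the chaperones and cofactors. They include no gene of the translocon, TRAP or signal peptidase. Element and role are thus mixed in this split, which is no test of the elements.

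The variants were then compared within each line as the log2 fold change (log2FC) of “WWOX” versus “Vec”. This was done with limma on log2(CPM + 0.5) over all 12327 tested genes and Benjamini-Hochberg adjustment (threshold 0.05). Whether the libraries of a group came from separate transductions is not given in the sources used here. An effect of WWOX and another difference between the selected cell populations therefore cannot be told apart. In U87MG 1 of the 41 members passed, SEC11C, which was higher, against 3.2% of all tested genes in either direction and 1.54% that were higher. For T98G the count was 0 (1.14% of all genes), as it was for U251MG (0.316%) and for DBTRG-05MG (1.02%), and limma-voom, edgeR, and DESeq2 on the recovered tags gave 0 as well in these 3 lines. At an unadjusted p under 0.05 the numbers of members were 3 for U87MG, 3 for T98G, 0 for U251MG, and 1 for DBTRG-05MG, where 11.5%, 11.5%, 11.5%, and 7.63% of all genes reached that level. Without the U251MG libraries the counts in the other lines were unchanged. The median standard error was 0.458 for the members and 0.321 for all genes, so that a given difference is estimated less precisely in this set.

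SEC11C encodes the second catalytic subunit of the signal peptidase and lies on chromosome 18 (59139866 to 59158832, plus strand, hg38). Its values in U87MG were 105, 78.7, and 96.6 CPM in “Vec” and 397, 220, and 222 CPM in “WWOX”. Every “WWOX” library was above every “Vec” library, and the log2FC was 1.47 (SE 0.378, adjusted p = 0.0303 by limma), a 2.77-fold rise. The call was lost when a separate model was fitted to U87MG (adjusted p = 0.0563) and when “Vec” 2 (0.149), “Vec” 3 (0.115), “WWOX” 1 (0.202), “WWOX” 2 (0.0574), or “WWOX” 3 (0.0511) was left out. The exact permutation test of 3 against 3 libraries gave p = 0.1, the smallest it allows. The 177 tested genes of chromosome 18 had a median log2FC of 0.28 in U87MG, against a median near 0 over all genes (−0.005), and the part of the chromosome in the rise of SEC11C was not tested.

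In the other lines SEC11C had log2FC of 0.47 in T98G (255, 229, and 259 against 353, 326, and 350 CPM), 0.46 in U251MG (68.1, 70.8, and 76.7 against 175, 62.3, and 90.8 CPM), and 0.47 in DBTRG-05MG (135, 382, and 118 against 455, 214, and 188 CPM), none past the threshold. The variants did not overlap in T98G and overlapped in U251MG and DBTRG-05MG. The mean of the 4 lines was 0.71 (SE 0.189, adjusted p = 0.0543 by limma), and the exact permutation of labels within lines gave p = 0.00396 (two-sided, unadjusted, 160000 arrangements, computed for SEC11C and HSPA5 alone after their values were seen). DESeq2 called SEC11C (adjusted p = 0.0201) and SEC11A for the mean, and median of ratios scaling called SEC11C (0.049). It was also called without U251MG “WWOX” 2 (0.0282), U251MG “WWOX” 3 (0.0429), or DBTRG-05MG “Vec” 2 (0.00243).
The 250 bases before its start (chr18:59139634-59139883, plus strand, 66.8% G and C, GRCh38.p14) are shown as those of the one member that passed in a line, and they hold neither element.
SEC11C: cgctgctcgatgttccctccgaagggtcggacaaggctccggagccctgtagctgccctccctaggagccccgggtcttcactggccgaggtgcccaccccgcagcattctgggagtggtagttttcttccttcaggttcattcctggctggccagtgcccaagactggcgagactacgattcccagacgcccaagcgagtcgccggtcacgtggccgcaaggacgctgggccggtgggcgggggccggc

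**Figure D3:**
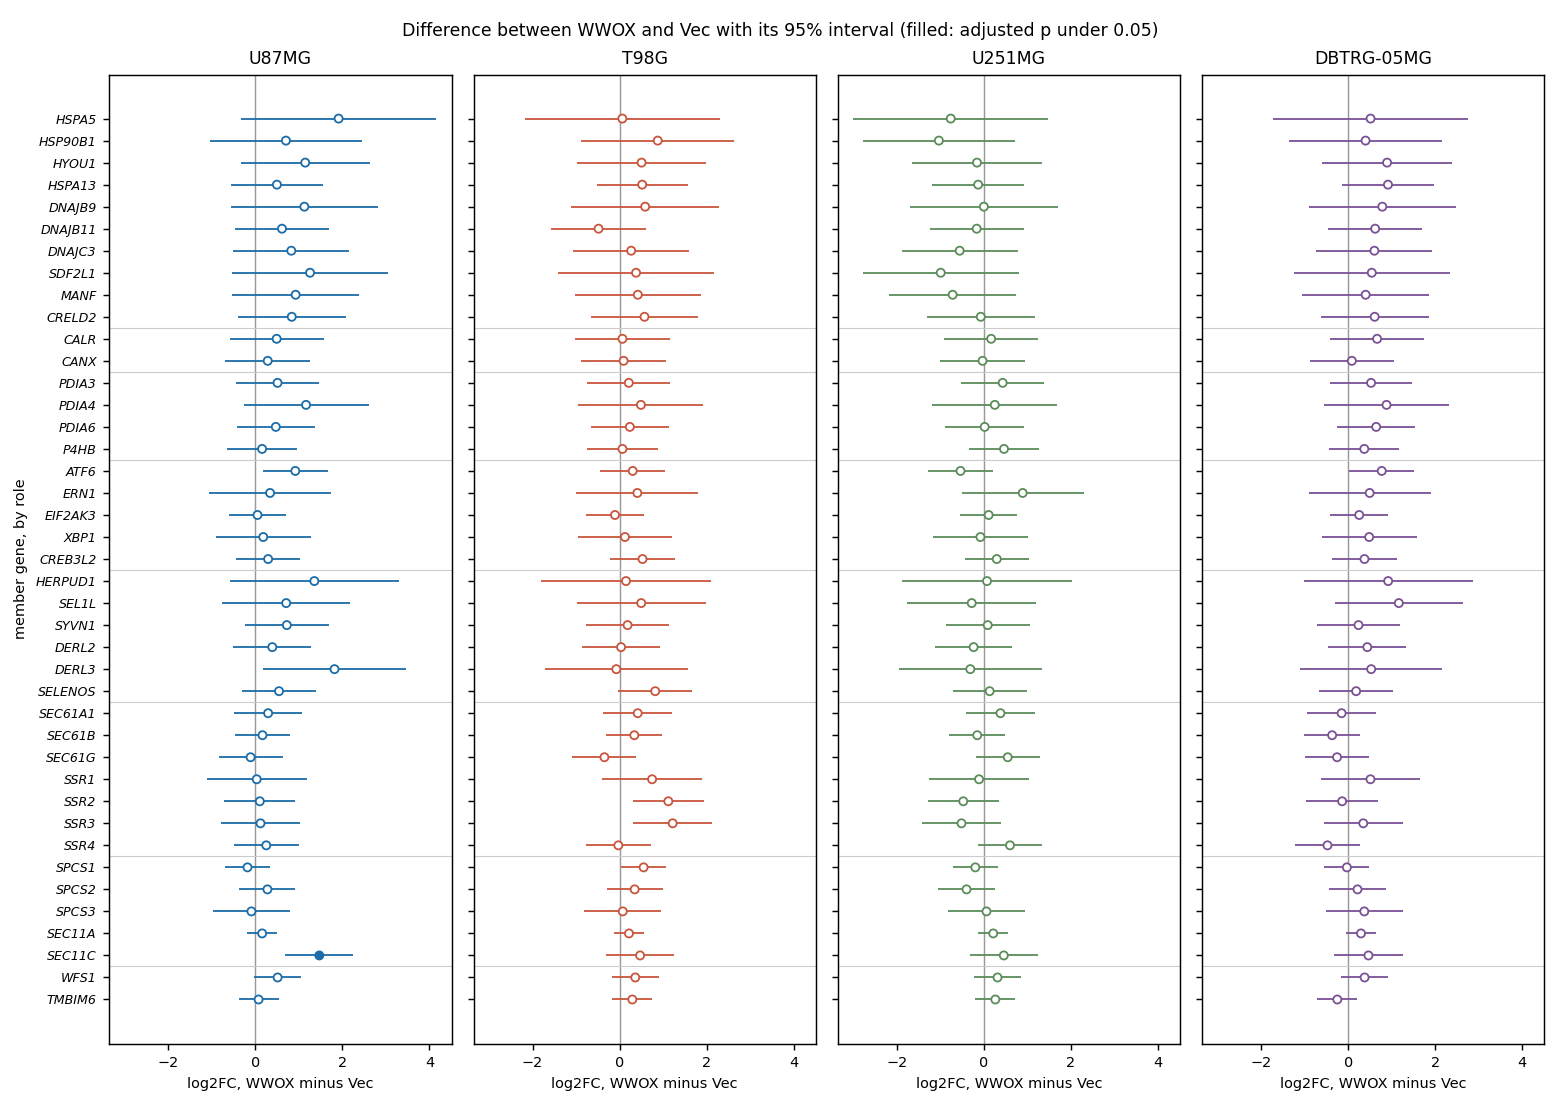
log2FC of “WWOX” versus “Vec” for the 41 tested members in each line; points are estimates, lines their 95% intervals, and filled points have an adjusted p under 0.05 by limma. SEC11C in U87MG (1.47) is the only filled point, and the intervals of HSPA5 cross 0 in all 4 lines.

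Among the chaperones, HSPA5 had log2FC of 1.91 for U87MG (SE 1.08, adjusted p = 0.571), 0.061 for T98G, −0.76 for U251MG, and 0.51 for DBTRG-05MG, and none passed. The exact permutation test over the 4 lines gave p = 0.486 for it. In U87MG all 10 chaperones and cofactors had positive log2FC (median 0.88), and in DBTRG-05MG all 10 again (median 0.60), whereas in U251MG none was positive (median −0.36) and in T98G 9 were (median 0.46). HSP90B1 (GRP94), the ER Hsp90, had the lowest log2FC in U251MG (−1.04), followed by SDF2L1 (−0.99). HSP90B1 was counted there at 108, 41.7, and 148 CPM in “Vec” and at 311, 33.6, and 7.03 CPM in “WWOX”, and its log2FC was 0.32 without U251MG “WWOX” 3. DNAJB11, an Hsp40 cochaperone of HSPA5, had the lowest value in T98G (−0.49).

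The lectin chaperones CALR and CANX had log2FC between −0.03 and 0.66 in the 4 lines. The 4 disulfide isomerases were positive in every line, from 0.02 (PDIA6 in U251MG) to 1.16 (PDIA4 in U87MG), and none passed the threshold. PDIA4, which forms and rearranges disulfide bonds, was counted at 1016, 420, and 481 CPM in U87MG “Vec” and at 3182, 1133, and 729 CPM in “WWOX”, and the variants overlapped.

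Of the sensors, ATF6, the membrane-bound transcription factor cleaved on stress, had log2FC of 0.92 in U87MG (unadjusted p = 0.0185, adjusted p = 0.251 by limma) and 0.77 in DBTRG-05MG (unadjusted p = 0.0438, adjusted p = 0.63). It was counted in DBTRG-05MG at 29.0, 45.1, and 39.3 CPM in “Vec” and at 88.9, 68.0, and 49.1 CPM in “WWOX”, without overlap. ATF6 was also the only member with an unadjusted p under 0.05 (against 14.6% of all genes) when limma tested whether the log2FC differed between lines. Its adjusted p was 0.306 in that limma test. The count of members past the threshold in that test was 0 by limma, limma-voom, edgeR, and DESeq2, and 3.5% of all genes passed by limma. ERN1 had the highest log2FC in U251MG (0.89), which was −0.08 without U251MG “Vec” 2. CREB3L2, a relative of ATF6, had a mean log2FC of 0.37 over the lines (unadjusted p = 0.049, adjusted p = 0.321).

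Among the ERAD genes, DERL3, one of the derlins of the retrotranslocation channel, was counted at 3.98, 3.86, and 0.561 CPM in U87MG “Vec” and at 9.67, 8.21, and 10.9 CPM in “WWOX”. The variants did not overlap, and the log2FC was 1.82 (SE 0.789, unadjusted p = 0.0313, adjusted p = 0.337 by limma). In DBTRG-05MG the highest log2FC of all members belonged to SEL1L, the scaffold of the HRD1 ligase (1.16; 131, 310, and 151 CPM in “Vec”, and 728, 427, and 255 CPM in “WWOX”), and HERPUD1 (0.92; 399, 483, and 266 CPM, and 814, 702, and 694 CPM). HERPUD1 did not overlap between the variants there, and SEL1L did. DERL1, another derlin, and EDEM1, which directs misfolded glycoproteins to degradation, remained between 0.281 and 4.73 CPM in all libraries.

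The highest log2FC in T98G belonged to the TRAP complex, which associates with the translocon. SSR3 was counted at 252, 584, and 202 CPM in “Vec” and at 427, 966, and 909 CPM in “WWOX” (log2FC 1.22, SE 0.435, unadjusted p = 0.0106, adjusted p = 0.226 by limma), and SSR2 at 7.38, 20.7, and 12.5 CPM and at 24.5, 23.2, and 36.8 CPM (log2FC 1.12, adjusted p = 0.219). SSR2 did not overlap between the variants, and SSR3 did. In the same line SSR4 had −0.03 and SEC61G, a small subunit of the channel, −0.35. In DBTRG-05MG SSR4 (−0.48) and SEC61B (−0.37) were lowest, in U87MG SPCS1 (−0.18) and SEC61G (−0.11), and in U251MG SSR4 was among the highest (0.60).

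Small differences were estimated most precisely in members with little spread. WFS1 (wolframin), a membrane protein of ER calcium handling, had log2FC of 0.39 over the lines (SE 0.13, adjusted p = 0.143 by limma) and SEC11A 0.22 (SE 0.0845, adjusted p = 0.212). In DBTRG-05MG WFS1 was counted at 61.6, 77.5, and 69.7 CPM in “Vec” and at 106, 92.9, and 85.3 CPM in “WWOX”, and SEC11A at 357, 397, and 383 CPM and at 542, 471, and 449 CPM. Neither overlapped between the variants of this line or, on the scaled values, of U251MG. None of the 41 members passed the threshold for the mean of the 4 lines (1.78% of all genes did). The number with an unadjusted p under 0.05 was 4 (15.4% of all genes), and limma-voom and edgeR gave 0 and DESeq2 gave 2.

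By sign alone, positive log2FC were found for 38 of the 41 members in U87MG, 36 for T98G, 19 for U251MG, and 34 for DBTRG-05MG, where 48.9%, 45.7%, 50.2%, and 50.7% of all tested genes did. The medians were 0.49, 0.34, −0.03, and 0.44, against −0.005, −0.04, 0.00, and 0.004 over all genes. Since the members vary together between libraries, these counts do not stand for 41 separate observations. The median in U87MG was 0.09 without “WWOX” 1 and 0.79 without “Vec” 1, that in U251MG −0.37 without “WWOX” 1, −0.34 without “Vec” 2, and 0.37 without “WWOX” 3, and that in DBTRG-05MG 0.20 without “Vec” 3, 0.25 without “WWOX” 1, and 0.72 without “Vec” 2. With edgeR and DESeq2 the U251MG median was 0.08 and 0.07. On the scaled values, “WWOX” libraries lay wholly above “Vec” libraries for 2 members of U87MG, 9 of T98G, 2 of U251MG, and 4 of DBTRG-05MG (7.74%, 7.0%, 5.43%, and 9.46% of all genes), and wholly below them for 0, 0, 0, and 1 (9.73%, 9.21%, 5.01%, and 10.3%).

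**Figure D4:**
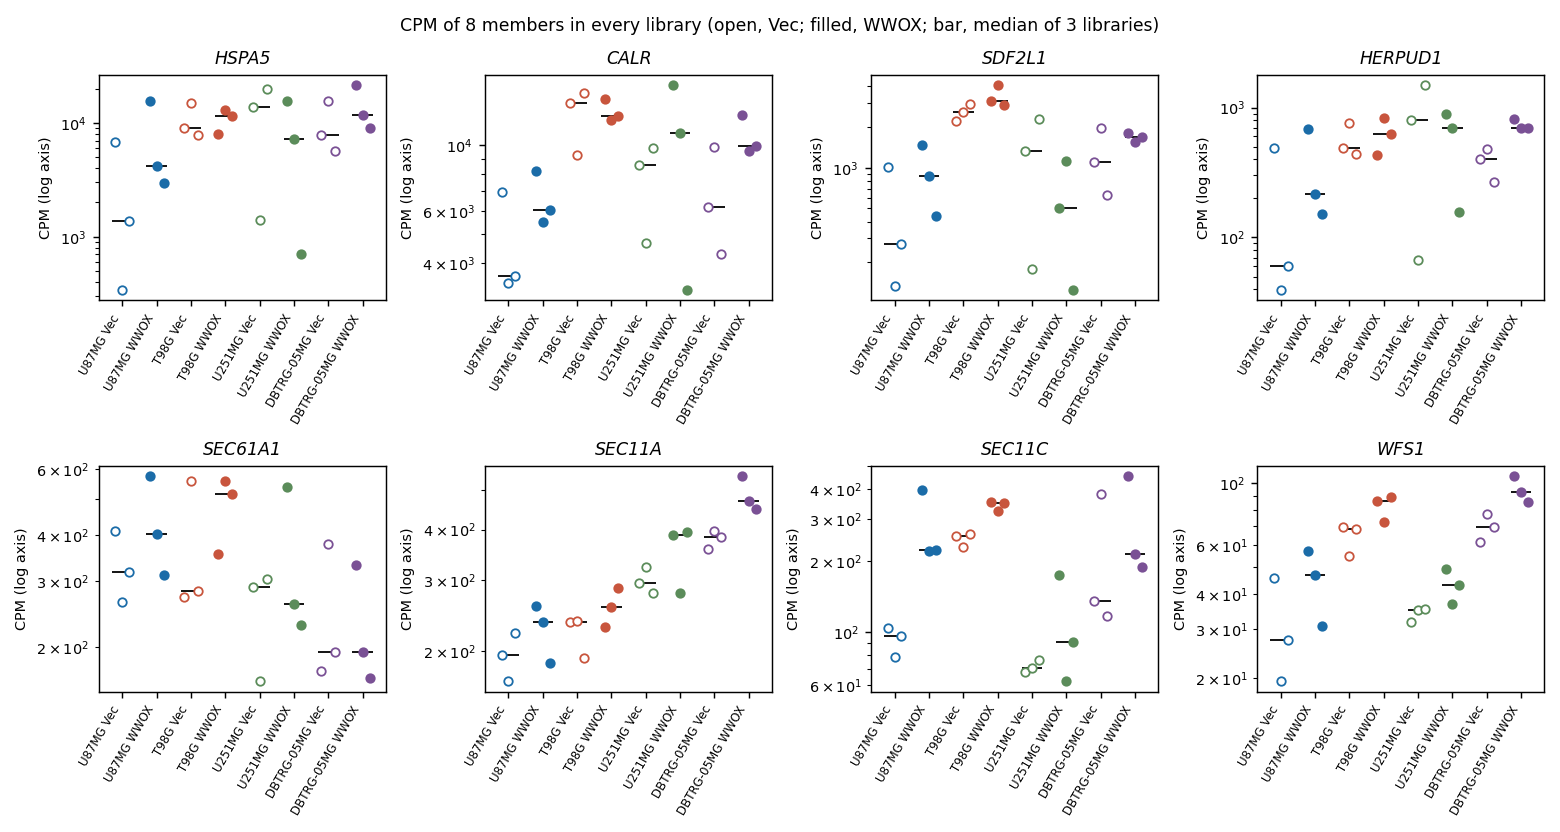
CPM (log axis) of 8 members in every library; open points are Vec, filled points WWOX, colours the lines, and bars the median of 3 libraries. Within U251MG Vec the highest library exceeds the lowest 14.1-fold for HSPA5, 12.9-fold for SDF2L1 and 22.2-fold for HERPUD1, whereas the ratios of SEC11A run from 1.11 to 1.42 over the 8 groups.

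The lines themselves differed in the level of these genes. Among the 4 “Vec” groups 17 of the 41 members differed (F test in limma, adjusted p under 0.05), a share of 41.5% against 66.9% of all tested genes. When each line was compared with the mean of the other 3, U87MG had 17 members lower and none higher (20 had an unadjusted p under 0.05 in either direction, a level reached by 51.6% of all genes), whereas 25.2% of all genes were lower and 19.9% higher. T98G had 11 higher and 1 lower (20.1% and 20.4% of all genes). U251MG had 2 higher and 5 lower (16.5% and 18.4%), and DBTRG-05MG 3 higher and 1 lower (22.7% and 19.9%). These comparisons share their libraries. U87MG was the lowest of the 4 lines for 28 members and T98G the highest for 29. The same counts were not made over all tested genes, and members that vary together are not separate observations. In bulk libraries, fewer cells with a high level and less RNA in every cell cannot be told apart.

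The low values of U87MG lay mainly in the folding genes. Of the 10 chaperones and cofactors 7 were lower there, and 3 of the 4 disulfide isomerases, whereas none of the 7 translocon and TRAP genes passed. HYOU1 was counted at 334, 74.2, and 115 CPM in U87MG “Vec”, at 1420, 2505, and 1413 CPM in T98G, at 1121, 281, and 1418 CPM in U251MG, and at 412, 1208, and 326 CPM in DBTRG-05MG. Its log2 difference from the other lines was −2.52 in U87MG (SE 0.584, adjusted p = 0.0012 by limma) and 2.26 in T98G (adjusted p = 0.00357). HSPA5 was lower in U87MG by the model (−2.42, SE 0.88, adjusted p = 0.0295), but its libraries overlapped those of the other lines and the call was lost without U87MG “Vec” 2 (adjusted p = 0.294), “Vec” 3 (0.0951), or U251MG “Vec” 3 (0.0518), and with no filter (0.0633), edgeR (0.106), and DESeq2 (0.0665). The count of 17 was 4 without U87MG “Vec” 2, 6 without U87MG “Vec” 3, and 10 without U251MG “Vec” 3. SPCS2, an accessory subunit of the signal peptidase, was lower in U87MG in every library (215, 125, and 172 CPM, against 366 to 818 CPM in the other lines; −1.76, SE 0.253, adjusted p = 5.21e-06). The smallest of the differences called in U87MG were those of WFS1 (−0.73) and SEC11A (−0.46), the latter no longer called without U87MG “Vec” 2 (adjusted p = 0.0934 by limma).

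T98G stood out most in CRELD2, a disulfide isomerase-like cofactor that is secreted on stress. It was counted at 1191, 1903, and 1318 CPM in T98G “Vec”, and at no more than 414 CPM in any other “Vec” library. The log2 difference was 3.52 (SE 0.488, adjusted p = 3.98e-06 by limma), or 11.5-fold, and the T98G “WWOX” libraries were at 2057, 2529, and 1878 CPM. Higher by the model in T98G were also DNAJB11 (1.90), SDF2L1 (2.06), and HYOU1 (2.26). In CPM the lowest T98G library of DNAJB11 (337) lay above all other “Vec” libraries, whereas those of SDF2L1 (2220) and HYOU1 (1413) lay below U251MG “Vec” 3 (2297 and 1418). The count in T98G was 6 without T98G “Vec” 3.

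DERL3 went the other way. In T98G it was listed at 0, 0.188, and 0 CPM in “Vec” and at 0, 0.0742, and 0 CPM in “WWOX”, with at most 3 tags in a library, whereas U251MG “Vec” had 23.8, 2.31, and 35.3 CPM. Set against the limit of 3 tags in the shallowest T98G “Vec” library (0.234 CPM), its mean was at least 11.99-fold higher in U87MG, 87.6-fold higher in U251MG, and 27.6-fold higher in DBTRG-05MG. Against the other lines DERL3 was higher in U251MG (2.67, SE 0.644, adjusted p = 0.0023), as was SEC61G (0.77, adjusted p = 0.0417). SEC11C (−1.26, adjusted p = 0.00272) and CRELD2 (−1.28, adjusted p = 0.0449) were lower there. SEC11C was at 68.1, 70.8, and 76.7 CPM in all U251MG “Vec” libraries, below every other “Vec” library, while the calls of CRELD2 and SEC61G did not hold in many fits. CRELD2 lost its call in 4 of the alternative fits and in 15 of the 24 fits without 1 library (adjusted p = 0.369 by limma without U251MG “Vec” 2). SEC61G lost its call with no filter (adjusted p = 0.0732) and in 9 of the 24 (adjusted p = 0.217 by limma without U251MG “Vec” 2). The count of 7 in U251MG was 4 without “Vec” 1.

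DBTRG-05MG differed from the others in members outside the folding group. EIF2AK3, the kinase that halts translation on ER stress, was counted at 9.56, 10.8, and 10.4 CPM in its “Vec” libraries and at 14.8 to 39.0 CPM in those of the other lines (−1.17, SE 0.26, adjusted p = 0.000956 by limma). SEC11A (0.53, adjusted p = 0.0034), WFS1 (0.63, adjusted p = 0.0202), and TMBIM6 (0.50, adjusted p = 0.0283) were higher. WFS1 passed in all 4 of these comparisons, higher in T98G (0.76) and DBTRG-05MG and lower in U87MG (−0.73) and U251MG (−0.65). Its call was lost in U87MG without “Vec” 2 (−0.45, adjusted p = 0.137 by limma) or “Vec” 3 (adjusted p = 0.0535), in T98G without “Vec” 3 (adjusted p = 0.0648), and in DBTRG-05MG without “Vec” 2 (adjusted p = 0.12). That of TMBIM6 was lost without DBTRG-05MG “Vec” 1 (adjusted p = 0.0653 by limma), DBTRG-05MG “Vec” 2 (0.177), or U87MG “Vec” 2 (0.0501).

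**Figure D5:**
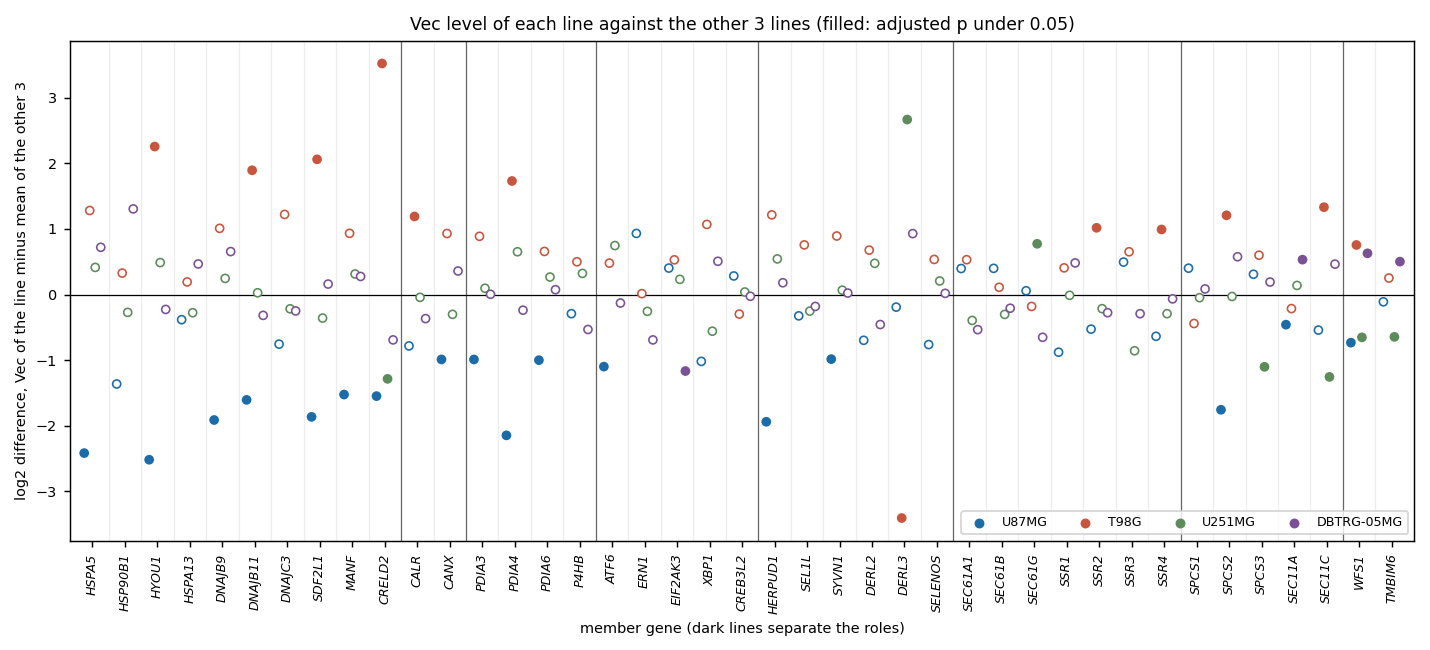
Difference of each line's Vec libraries from the mean of the other 3 lines (log2) for the 41 tested members by role; colours are lines and filled points have an adjusted p under 0.05 by limma. Filled U87MG points lie below 0, led by HYOU1 (−2.52), T98G has CRELD2 at 3.52 and DERL3 at −3.41, and few translocon genes are filled.

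Other genes of the same pathways, 116 in 6 lists of which 113 were tested, were read as a background to the members. In U87MG 1 was higher and none lower, in T98G 3 were higher and 1 lower, and none passed in U251MG or DBTRG-05MG. Over all tested genes the shares called in either direction were 3.2%, 1.14%, 0.316%, and 1.02% in these lines. TUSC3, a subunit of the oligosaccharyltransferase, rose in U87MG (log2FC 2.09, SE 0.225, adjusted p = 1.25e-06 by limma). In T98G SRPRB, the membrane subunit of the signal recognition particle receptor (1.65, adjusted p = 0.0356), KDELR2, which returns ER proteins from the Golgi (1.72, adjusted p = 0.0156), and SEC24C, a cargo adaptor of the COPII coat (0.87, adjusted p = 0.0444), rose. CREB3L1, a relative of ATF6, fell there (−1.77, adjusted p = 0.00584). The medians of the 113 genes were 0.05, 0.32, 0.05, and 0.13 in the order U87MG, T98G, U251MG, and DBTRG-05MG. Those of all tested genes lay between −0.04 (T98G) and 0.004 (DBTRG-05MG).

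In their deviations between libraries, each list of these other genes had a lower median r with HSPA5 than the 40 members had (0.768). This did not hold for every role. The medians of the translocon and TRAP members (0.315) and the signal peptidase members (0.376) were below those of the glycan list and the PERK and ATF6 list. The median r was 0.338 for 20 other foldases and cochaperones, 0.411 for 19 genes of glycan quality control and transfer, 0.103 for 18 partners of ERAD, 0.23 for 25 genes of targeting and insertion, and 0.252 for 17 genes of vesicle coats and cargo receptors. Among 14 outputs and regulators of the PERK and ATF6 arms the median was 0.449. ATF4 (0.872), TRIB3 (0.868), DDIT3 (0.837), CHAC1 (0.827), and ATF3 (0.814), which act after PERK, were highest. The proteases MBTPS1 (0.051) and MBTPS2 (0.019), which cleave ATF6, had values near 0, and CREB3L1 was lowest (−0.518).

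Some members had a low mean level. DERL1 and EDEM1 were low in every library, whereas SSR2 reached 36.8 CPM (T98G “WWOX” 3) and DERL3 35.3 CPM (U251MG “Vec” 3). The first 75 bases after the annotated start of 17 of the 43 members lie within another annotated gene (GENCODE 44), and 3 of these 17 (DERL1, EDEM1, and SSR2) had a mean under 10 CPM, against 1 of the other 26 (DERL3). Among all protein-coding genes the shares were 66.2% of 6209 and 56.9% of 13215. HSP90B1, whose start lies in 1 other gene, had a mean of 153 CPM. How the authors assigned tags of overlapping genes is not given in the sources used here, and the part of the overlap in these levels was not tested.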

How the data were processed

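CAGE-Seq reads had been aligned by the authors to hg38 with STAR, tags per gene were counted with SAMtools tools in R, and the authors deposited them as CPM, the counts of each library scaled to a sum of 1000000. The gene annotation and strand setting are not given in the sources used here. Within a tolerance of 0.01, 100.0% of the values of each library were whole multiples of 1 tag, and the recovered tags were used for edgeR, DESeq2, and limma-voom. Replicates are biological triplicates per the study, and p-values measure the spread between these libraries.

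CPM were scaled by unweighted trimmed mean of M-values, and 0.5 was added before log2. Genes of at least 5 CPM in at least 1 library (12327) entered 1 limma (3.58.1) model with trend and 8 groups (16 residual degrees of freedom). Contrasts were “WWOX” minus “Vec” in each line, their mean, their difference between lines, and each “Vec” level against the mean of the other 3. Values of p are two-sided with Benjamini-Hochberg adjustment over all tested genes. Fold changes are on the log2(CPM + 0.5) scale and understate those of low genes. R 4.3.3, edgeR 4.0.16 and DESeq2 1.42.0 were used. The fits were tested on simulated data with the same dispersion for all genes. That simulation did not carry the spread measured in these members and gives no measure of power for them. Floors of 3 tags cover counting error only.

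The members, the lists and the tests were chosen with earlier results of these data known. Statistics are given for members past the threshold, the 2 highest and 2 lowest log2FC of each line, the 2 highest and 2 lowest called “Vec” differences of each line, members at 3 tags or fewer, up to 2 other ER genes per direction and line, and promoters with an element. Other members are named as examples.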

Additional observations from a re-analysis of the deposited data

How the results depend on the processing

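Besides the 24 fits without 1 library each, 12 alternatives were run, and counts and medians were compared with the main fit. A count was taken as kept within 1.5 times its main value. A median was taken as kept if it moved by less than the median standard error of the members (0.458), whatever its sign. The U251MG median turned positive within that limit with edgeR (0.08) and DESeq2 (0.07). Of 164 values 159 were kept. The exceptions were the count in U87MG (0 in a separate model per line), the count for the mean of the 4 lines (1 with median of ratios, 2 with DESeq2), and the count of “Vec” levels that differed in U87MG (9 with no filter, 10 with edgeR). On leaving out 1 library the counts ran from 0 to 1 in U87MG and for the mean of the lines. They stayed at 0 in T98G, U251MG, DBTRG-05MG, and for the difference in log2FC between lines. For “Vec” levels they ran from 12 to 24 among lines, 4 to 20 for U87MG, 6 to 17 for T98G, 4 to 8 for U251MG (4 without “Vec” 1), and 3 to 5 for DBTRG-05MG. The medians ran from 0.09 to 0.79 in U87MG, 0.27 to 0.36 in T98G, −0.37 to 0.37 in U251MG, and 0.20 to 0.72 in DBTRG-05MG. Among the named log2FC, none of these called, the sign turned for HSP90B1 in U251MG with edgeR (0.13) and DESeq2 (0.094). On leaving out 1 library it ran from −2.37 to 0.32 for that gene, −0.082 to 1.75 for ERN1 in U251MG, −0.69 to 0.055 for SEC61B in DBTRG-05MG, and −0.24 to 0.028 for SEC61G in U87MG, with the turned signs without U251MG “WWOX” 3, U251MG “Vec” 2, DBTRG-05MG “Vec” 2, and U87MG “WWOX” 3. The causes were not tested. Leaving out U251MG entirely was chosen after seeing the data.

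Same-numbered “Vec” and “WWOX” libraries had correlations of their deviations from −0.55 to 0.51. For numbers 1, 2, and 3 they were 0.34, 0.21, and −0.15 in U87MG and 0.43, 0.51, and −0.36 in T98G. They were 0.08, −0.32, and −0.40 in U251MG and −0.53, −0.55, and −0.24 in DBTRG-05MG. The sources used here do not say whether numbers pair the libraries, and a pairing within single lines was not tested. The replicate block held shifts by number that were common to all lines. With the replicate block the counts were 1 in U87MG, 0 in the other lines and for the mean, 18 among lines, and 17, 15, 7, and 4 for the “Vec” levels of U87MG, T98G, U251MG, and DBTRG-05MG. The wide spread between libraries of a group, with 3 libraries in each, limits what differences these data can show.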

Other observations

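Of the 50 genes whose deviations between libraries were most like those of HSPA5 (r from 0.881 to 0.964 over the 24 libraries, with no test), 10 were members and 40 were not, and they were ranked after the values were seen. The closest was LINC00662 (0.964), a long noncoding RNA. HSPA9 (0.946), the Hsp70 of mitochondria, was next among genes outside the set. Aminoacyl-tRNA synthetases were WARS1 (0.945), LARS1 (0.935), SARS1 (0.93), AARS1 (0.919), IARS1 (0.907), MARS1 (0.904), CARS1 (0.893), and TARS1 (0.889). PSAT1 (0.943) and PSPH (0.914), enzymes of serine synthesis, and GOT1 (0.939), an aspartate aminotransferase, were also there, as were SLC6A9 (0.914) and SLC1A4 (0.895), amino acid transporters, and CTH (0.882) and MTHFD2 (0.881). FICD (0.898), the enzyme that modifies HSPA5 by AMPylation, and TNFRSF10B (0.895), a death receptor, stood among them too. All r share the same 24 libraries and 8 group means.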
